A study of Mus musculus with 27 samples.

Results

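The 10 genes described here belong to the pathway that controls the first decision of the cell division cycle, and their RNA was followed in the mouse retina. They are the D-type cyclin genes Ccnd1, Ccnd2 and Ccnd3, the kinase genes Cdk4 and Cdk6, the inhibitor genes Cdkn1a, Cdkn1b, Cdkn2c and Cdkn2d, and Rb1. They were taken from a table of 38168 features by their symbols. Each symbol occurs in 1 entry, and all 10 genes passed the filter on low values, as did 31760 of the features. Whole retinas of wild-type C57BL/6J mice were collected at 7 ages and measured by RNA-seq in 27 libraries. There were 3 libraries at embryonic day 14 (E14), 3 at E17, 4 at postnatal day 1 (P1), 3 at P6, 4 at P15, 4 at P28 and 6 at P60. No mouse carried a transgene or received a treatment. Mice up to P1 were of mixed sex and older mice were males. Where ages up to P1 are compared with older ages, age thus cannot be told apart from sex. The shares of the sexes in the mixed pools are not given in the study's methods. The labels give 3 retinas to each library, which differs from the study's methods, where most libraries were larger pools of several animals. Most of those at P60 came from single mice and the rest from pools, and the labels do not say which. The values are CPM, reads of a gene scaled to the total of its library, which give a gene's share of the reads in a library and not its amount per cell.

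D-type cyclins bind Cdk4 or Cdk6, and the active kinases phosphorylate the retinoblastoma protein, the product of Rb1. Phosphorylation releases E2F transcription factors, which turn on genes for DNA replication. INK4 proteins, such as the products of Cdkn2c (p18) and Cdkn2d (p19), bind Cdk4 and Cdk6 themselves. CIP/KIP proteins, the products of Cdkn1a (p21), Cdkn1b (p27) and Cdkn1c (p57), bind complexes of cyclins and kinases. In the mouse retina progenitor cells divide through embryonic life and the first days after birth, rods are the largest group of cells born, and Ccnd1 is known as the main D-type cyclin of retinal progenitors.

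The postnatal end of proliferation lay between P1 and P15 in these libraries, with most of the fall by P6. Mki67, the gene of the proliferation antigen Ki-67, stood at 2259 CPM at P1 (SD 176, n = 4), 64.9 CPM at P6 (SD 11.7, n = 3) and 0.968 CPM at P15 (SD 0.391, n = 4). Top2a, a DNA topoisomerase of dividing cells, stood at 628 CPM at P1, 15.4 CPM at P6 and 0.454 CPM at P15. Of 25 genes of cycling cells, 24 fell and 0 rose from P1 to P6, and 25 fell from P1 to P15. The median of these genes' levels at P6 was 7.54% of their P1 mean, and at P15 it was 3.53%. Over the same step from P1 to P15, all 8 retinal progenitor markers fell and all 8 rod markers rose, and the summed level of the rod markers went from a mean of 200.2 CPM at P1 to 18692 CPM at P15. A gene's CPM falls when other RNA takes a larger share, and in whole tissue fewer cells of a type and less RNA per cell cannot be told apart. The counted reads behind the CPM values, recovered from those values, totalled between 7077781 and 11332323 in a library, fewer than the sequenced reads the study states. A level of 3 reads, the floor used here, thus lay between 0.265 and 0.424 CPM.

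Changes were tested with limma on log2(CPM + 1) in 1 fit to the 27 libraries, with p-values adjusted by Benjamini-Hochberg over the 31760 features, and a gene was said to rise or fall at an adjusted p under 0.05. From P1 to P15, 1 of the 10 genes rose (Ccnd3), 9 fell and 0 did not pass. Of all features tested 60.3% passed in this comparison, 27% higher and 33.3% lower, so a change as such was common, and the members' median log2 fold change of -1.64 stands beside -0.08 over all features. From P1 to P6, 8 members fell and 0 rose (38.3% of all features passed, 20.4% lower). From P6 to P15, 6 fell and 1 rose (33.4% passed, 19% lower and 14.4% higher). Before birth and around it fewer moved. From E14 to E17, 2 rose and 3 fell (10.6% passed, 7.56% higher and 3.02% lower), and from E17 to P1, 2 rose and 1 fell (9.21% passed, 5.77% higher and 3.43% lower). After P15 1 member rose to P28 (2.72% passed, 1.14% higher and 1.58% lower) and 1 fell from P28 to P60 (12.9% passed, 4.8% higher and 8.11% lower). The libraries of P1 and P15 did not overlap for 9 members, as for 56.3% of all features, and those of P1 and P6 for 8 (47.9% of all features), those of P6 and P15 for 7 (42.7%), those of E14 and E17 for 7 (36.8%), those of E17 and P1 for 4 (25.8%), those of P15 and P28 for 4 (11.5%) and those of P28 and P60 for 1 (4.13%). The libraries of P60 were not alike, and P60 replicates 1 and 2 stood apart. Features with few reads in the 2 libraries compared were left out of this count. The chi-square divided by its degrees of freedom was 8.36 to 21.5 between these replicates and the other 4 libraries of their age and 3.29 between the pair. It was 4.62 to 9.31 among the other 4 and 1.72 to 8.22 between libraries of any other age. Results on P60 that change without them are given both ways. At P15, replicate 4 lay at 5.38 to 8.22 from the others of its age, which lay at 1.72 to 2.43 from each other. At E17, replicate 2 lay at 6.64 and 7.37 from the others, against 2.50 between those. All 10 members varied over the 7 ages by the F test of the same fit (adjusted p at most 0.00375), as did 83% of all features.

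**Figure D1:**
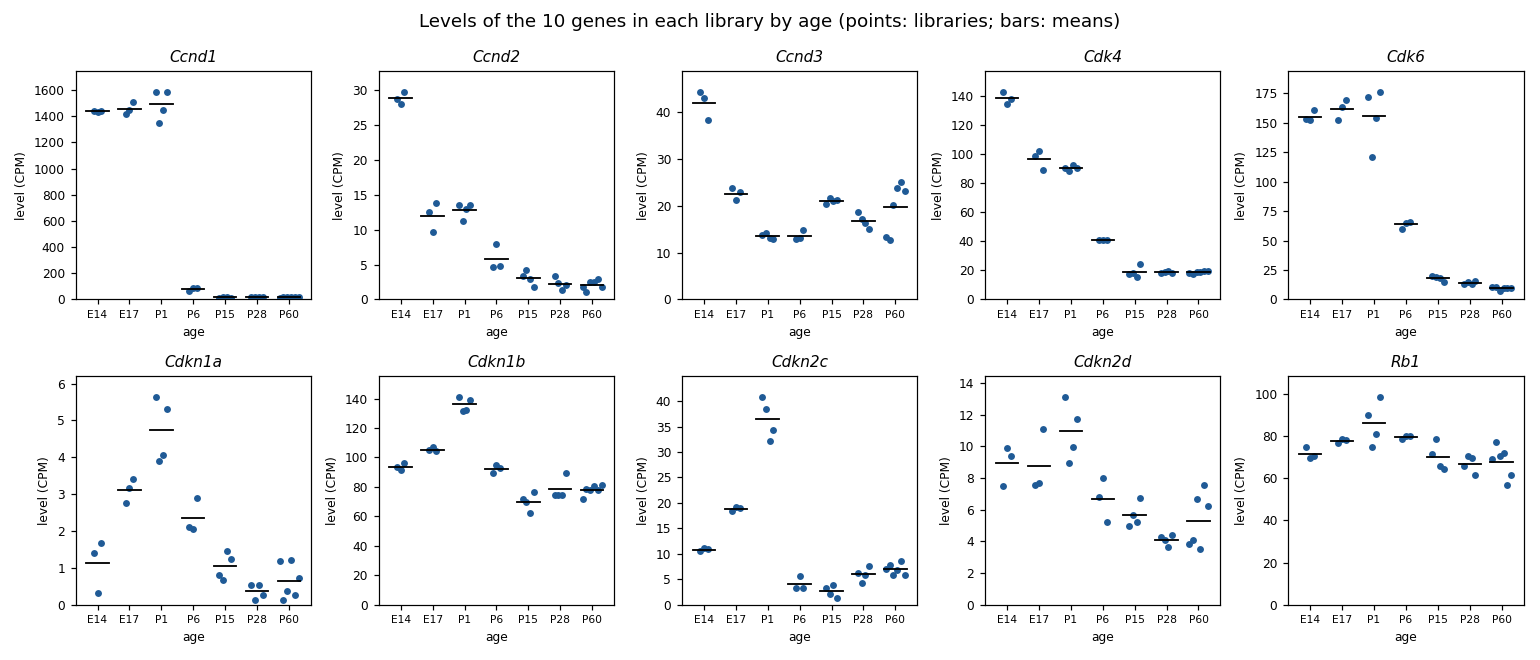
Level of each of the 10 genes in CPM (y axis, from 0) in each library by age (x axis), with points for libraries and bars for the mean of an age. Ccnd1 stands at 1344 to 1588 CPM up to P1 and at 22.0 CPM or less from P15 on, Ccnd3 is lowest at P1 and P6, and Rb1 changes least.

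Ccnd1 (cyclin D1) was the member that fell furthest after birth. It read 1441, 1434 and 1438 CPM in the libraries of E14, 1414, 1449 and 1505 CPM at E17, and 1585, 1344, 1445 and 1588 CPM at P1. The level before and at birth was flat, with log2 fold changes of 0.02 from E14 to E17 and 0.03 from E17 to P1, neither past the test. At P6 the libraries held 65.0, 85.3 and 88.1 CPM, and at P15 they held 14.1, 16.2, 16.8 and 14.4 CPM. Every library of P6 lay below every library of P1 and above every library of P15. The mean at P1 was 18.8 times that at P6 and 97.0 times that at P15, with log2 fold changes of -4.22 (SE 0.12, adjusted p = 2.0e-23) from P1 to P6, -2.29 (SE 0.12, adjusted p = 4.2e-16) from P6 to P15 and -6.51 (SE 0.11, adjusted p = 1.1e-29) over both. The level did not reach 0. At P28 it was 19.5, 21.6, 16.6 and 20.5 CPM, a step that did not pass the test (log2 fold change 0.33, adjusted p = 0.115) but passed in the fit without P60 replicates 1 and 2 (adjusted p = 0.0139). At P60 the lowest, median and highest library held 13.8, 20.02 and 22.0 CPM, which is 105 to 175 reads in a library.

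A measured fact stands beside the low adult level of Ccnd1. The gene lies on chromosome 7 of GRCm38 (144929931 to 144939925, minus strand), and 23.4% of its exon bases are also exon bases of Oraov1 (LTO1 in the annotation), the neighbouring gene on the opposite strand. Whether counting used the strand is not given in the sources used here. Oraov1 read 33.2% of the Ccnd1 value on average at P1, with a range of 32.4% to 34.6%, and 34.2% at E14 and 33.8% at E17. It fell less, to a median of 48.8 CPM at P6 and 25.0 CPM at P15, where its value was 167% of that of Ccnd1. So in each library from P15 on Ccnd1 had fewer reads than its overlapping neighbour, and how many of its reads belong to either gene was not tested.

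Ccnd2 (cyclin D2) had its highest level at the first age. It read 28.7, 28.1 and 29.8 CPM at E14 and 12.5, 9.71 and 13.8 CPM at E17, without overlap, a fall of 1.21 on the log2 scale (SE 0.24, adjusted p = 5.0e-04). From E17 to P1 it did not pass the test (log2 fold change 0.09). It then read 13.5, 11.2, 12.9 and 13.5 CPM at P1, 4.66, 7.90 and 4.83 CPM at P6 and 3.35, 4.21, 2.92 and 1.79 CPM at P15, and each age lay wholly below the one before. The fall from P1 to P15 was 1.79 on the log2 scale (SE 0.21, adjusted p = 8.0e-09), and the mean at P15 was 24.0% of that at P1. The later step, from P6 to P15 (log2 fold change -0.74, SE 0.23, adjusted p = 0.0105), did not pass without P6 replicate 2 (-0.53, adjusted p = 0.114) or without P15 replicate 4 (-0.57, adjusted p = 0.0538). From P28 on Ccnd2 rested on 8 to 25 reads in a library. Of its exon bases 3.91% are shared with 9330179D12Rik and 3.95% with Gm43126, both on the opposite strand, and the levels of these genes were not analysed here.

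Ccnd3 (cyclin D3) took the opposite course after birth and was the member that rose over the end of proliferation. Its libraries held 44.4, 42.9 and 38.3 CPM at E14, 23.7, 21.2 and 23.0 CPM at E17, and 13.9, 14.2, 13.1 and 12.9 CPM at P1, with no overlap between these ages. The falls were 0.86 on the log2 scale from E14 to E17 (SE 0.18, adjusted p = 6.7e-04) and 0.70 from E17 to P1 (SE 0.16, adjusted p = 0.0039). At P6 it read 13.0, 13.2 and 14.8 CPM, level with P1 within the spread of the libraries (log2 fold change 0.01, SE 0.16). At P15 it read 20.5, 21.6, 20.9 and 21.3 CPM, above every library of P1 and P6. The rise was 0.59 from P6 (SE 0.16, adjusted p = 0.0051) and 0.60 from P1 (SE 0.15, adjusted p = 9.4e-04), or 1.56 times the P1 mean. At P28 the values were 18.8, 17.1, 16.2 and 14.96 CPM. At P60 the libraries spread from 12.7 to 25.0 CPM with a median of 21.7 CPM, replicates 1 and 2 being the low ones at 13.2 and 12.7 CPM, and neither step after P15 passed the test. These replicates stood apart by the chi-square above too. Without them the other 4 libraries of P60 lay above every library of P28, and the step from P28 was a rise of 0.44 on the log2 scale (SE 0.10, adjusted p = 5.9e-04). Of its exon bases 4.11% are shared with Bysl on the opposite strand, which read between 13.5 and 24.5 CPM at P15.

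The balance of the 3 cyclins within a library shifted from P1 to P15, with a smaller share of Ccnd1 and a larger share of Ccnd3. The shares of members in a family are given as CPM per kb of exon, taken over all annotated exons of a gene. On that scale Ccnd1 made up 99.1% of the D-type cyclin signal at P1 (SD 0.053, n = 4), 88.5% at P6 (SD 1.02, n = 3) and 54.4% at P15 (SD 1.83, n = 4), and 62.6% at P60 (SD 4.31, n = 6). The share of Ccnd3 was 0.486% at P1, 8.26% at P6, 40.2% at P15 and 34.0% at P60, and that of Ccnd2 was at most 5.41% at any age. The summed signal of the 3 cyclins dropped from 319 CPM per kb at P1 to 19.0 at P6 and 5.99 at P15, so the larger share of Ccnd3 is a share of a much smaller total. Without replicates 1 and 2 the P60 shares were 60.5% for Ccnd1 and 36.0% for Ccnd3. Not scaled to length, the means at P15 were 15.4 CPM for Ccnd1 and 21.1 CPM for Ccnd3. Which of these shares is the larger at P15 thus depends on the exon lengths used. What part reads of Oraov1 have in the share of Ccnd1 was not tested. The change of the balance was tested as log2 ratios of CPM + 1 within each library, P1 against P15, with an exact two-sided permutation test of 4 against 4 libraries. These ratios are not scaled to gene length, so only their change between ages is given and not which gene was higher. The smallest possible p is 0.0286, and adjusted values are over the 16 ratios tested. The ratio of Ccnd1 to Ccnd3 fell by 7.11 (SD among libraries 0.16 at P1 and 0.11 at P15), that of Ccnd1 to Ccnd2 by 4.72 (SD 0.04 and 0.35), and that of Ccnd2 to Ccnd3 by 2.40 (SD 0.17 and 0.38), each with exact p = 0.0286 and adjusted p = 0.0305.

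**Figure D2:**
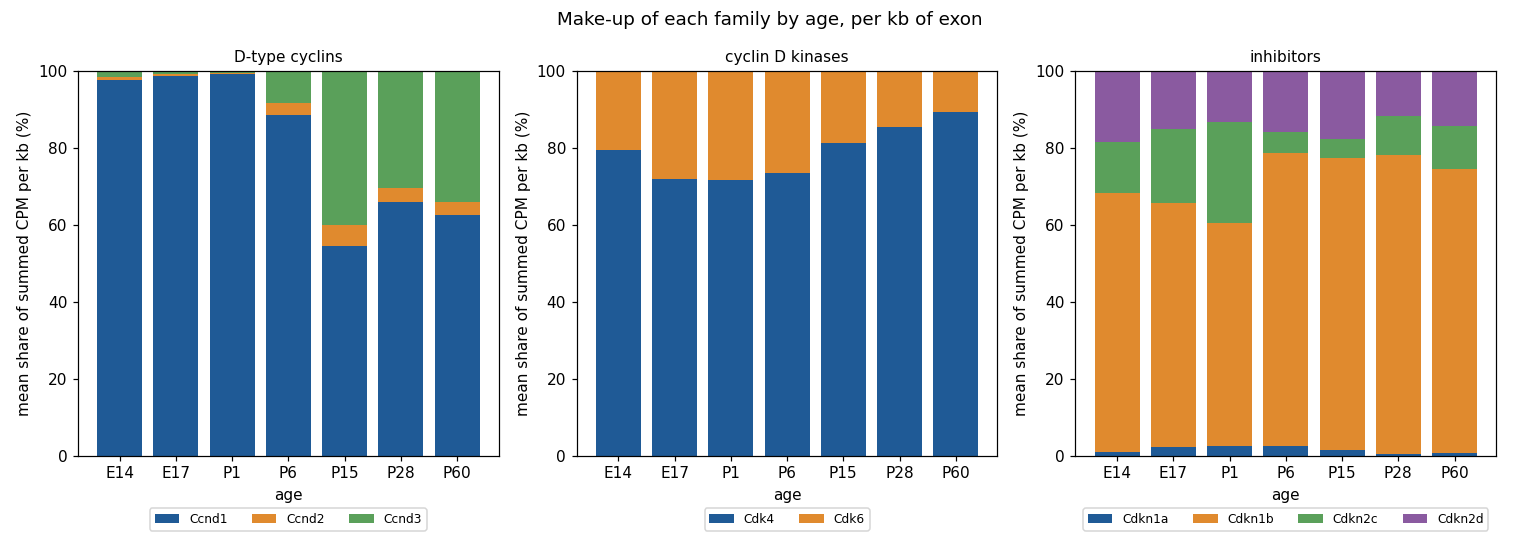
Mean share (y axis, %) of each gene in the summed CPM per kb of exon of its family, by age (x axis), for the D-type cyclins, the 2 kinases and the 4 inhibitors. Ccnd3 grows from 0.486% of the cyclins at P1 to 40.2% at P15, and Cdkn2c takes its largest share of the inhibitors at P1 (26.2%).

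Cdk4 and Cdk6, the kinases that D-type cyclins activate, both fell after birth, but from different starts. Cdk4 read 143, 134 and 138 CPM at E14 and 98.5, 102 and 88.9 CPM at E17, a fall of 0.52 on the log2 scale (SE 0.11, adjusted p = 9.3e-04). Cdk6 read 153, 152 and 161 CPM at E14 and 153, 163 and 169 CPM at E17, and these ages overlapped (log2 fold change 0.06, SE 0.13). At P1 the libraries held 90.2, 88.2, 92.5 and 90.3 CPM of Cdk4, and 172, 121, 154 and 177 CPM of Cdk6.

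After birth the kinases fell at both steps. Cdk4 stood at 40.7, 40.7 and 41.0 CPM at P6 and at 17.5, 18.3, 15.2 and 24.2 CPM at P15, and its log2 fold changes were -1.13 from P1 to P6 (SE 0.10, adjusted p = 7.45e-11) and -1.10 from P6 to P15 (SE 0.10, adjusted p = 3.3e-10). Cdk6 stood at 60.2, 65.2 and 65.8 CPM at P6 and at 20.2, 19.0, 18.0 and 14.8 CPM at P15, with log2 fold changes of -1.26 (SE 0.12, adjusted p = 3.2e-10) and -1.78 (SE 0.12, adjusted p = 3.3e-13). No library of P1, P6 and P15 overlapped with another of these ages for either gene. At P15 Cdk4 kept 20.8% and Cdk6 11.6% of the P1 mean. The log2 ratio of Cdk4 to Cdk6 within a library, again not scaled to length, rose by 0.81 from P1 (SD 0.23) to P15 (SD 0.42, exact p = 0.0286, adjusted p = 0.0305). Replicate 4 of P15 held the most Cdk4 and the least Cdk6 of its age, and without it the difference was 0.61.

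In the adult 1 step passed the test, for Cdk6, and the difference between the kinases there was not tested. Cdk4 had means of 18.8 CPM at P15 (SD 3.82), 18.9 CPM at P28 (SD 0.469) and 18.8 CPM at P60 (SD 0.794). Cdk6 read 13.1, 14.5, 13.0 and 15.3 CPM at P28 and 7.40, 9.90 and 10.8 CPM in the lowest, median and highest library of P60, below every library of P28. This fall of 0.49 on the log2 scale (SE 0.10, adjusted p = 0.0051) passed the test in the fit to all ages and not in a fit to these 2 ages alone (adjusted p = 0.181). Without P60 replicates 1 and 2 it was 0.55 (SE 0.10, adjusted p = 8.9e-05). Per kb of exon Cdk4 made up 79.3% of the kinase signal at E14, 71.5% at P1, 81.4% at P15 and 89.3% at P60.

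Beside these levels stand the genes that overlap the kinases. Of the exon bases of Cdk4, 19.7% are shared with Tspan31 on the opposite strand, which read 38.5% of the Cdk4 value at P1 and 97.0% at P15. Of those of Cdk6, 2.63% are shared with Gm17590, which read at most 14.3% of the Cdk6 value in any library. What part these reads have in the kinase values was not tested.

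The promoters of both kinase genes are shown because that of Cdk4 carries an unusual repeat. The sequences are those of RefSeq (GRCm38.p6), 300 bases from 250 before to 50 after an annotated start, with the E-box CACGTG, the sequence that MYC family proteins bind, in capitals. Cdk4 is at chr10:127063285-127063584 and Cdk6 at chr5:3343643-3343942, both on the plus strand.
Cdk4: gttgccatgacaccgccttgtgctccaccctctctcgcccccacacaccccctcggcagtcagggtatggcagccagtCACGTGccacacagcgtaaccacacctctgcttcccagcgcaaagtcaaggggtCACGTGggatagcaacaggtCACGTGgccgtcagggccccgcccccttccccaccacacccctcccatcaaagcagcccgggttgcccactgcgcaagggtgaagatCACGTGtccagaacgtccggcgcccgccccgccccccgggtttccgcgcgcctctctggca
Cdk6: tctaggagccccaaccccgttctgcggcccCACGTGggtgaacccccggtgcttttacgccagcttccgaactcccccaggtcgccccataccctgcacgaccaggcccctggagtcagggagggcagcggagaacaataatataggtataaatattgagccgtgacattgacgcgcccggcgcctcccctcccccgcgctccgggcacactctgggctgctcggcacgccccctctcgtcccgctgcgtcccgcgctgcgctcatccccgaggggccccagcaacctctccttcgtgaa
The window of Cdk4 holds 4 E-boxes, which begin 172, 118, 98 and 11 bases before the start, and that of Cdk6 holds 1, which begins 220 bases before it. CACGTG reads the same on both strands and overlaps none of the other motifs searched. It occurs in 7.15% of 32851 promoter windows, and 4 or more occur in 0.0244%. Windows were found for 7 of the 10 members, with 10 windows in all, and 1 window of Cdkn2c also holds 1 E-box. Ccnd1, Ccnd2 and Rb1 had no window. The E2F motifs TTTCCCGC, TTTGGCGC, TTTCGCGC and TTTGCCGC and the motif TTTGAA of genes of late cell cycle were searched on both strands and had no match in the members' windows. Of all windows 2.26% hold any of the E2F motifs and 17.9% hold TTTGAA. Mycn, a MYC family gene of retinal progenitors, read 69.8 CPM at P1 (SD 5.89), 42.5 CPM at P6 (SD 5.26) and 7.86 CPM at P15 (SD 1.14), and Myc read at most 6.11 CPM in any library. Whether MYC family proteins have a part in the levels of the kinases was not tested.

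The CIP/KIP inhibitors Cdkn1a and Cdkn1b both peaked at P1. Cdkn1b (p27), which is known to hold back division in retinal progenitors and Müller glia, read 93.4, 91.5 and 95.9 CPM at E14, 105, 107 and 104 CPM at E17 and 141, 131, 132 and 139 CPM at P1. Each age lay above the one before, and the rise from E17 to P1 passed the test (log2 fold change 0.36, SE 0.08, adjusted p = 0.0015). At P6 the level was 89.6, 94.5 and 92.8 CPM, and at P15 it was 71.6, 70.1, 62.2 and 76.4 CPM. The falls were 0.55 on the log2 scale from P1 to P6 (SE 0.08, adjusted p = 5.8e-07), 0.40 from P6 to P15 (SE 0.08, adjusted p = 1.4e-04) and 0.95 over both (SE 0.07, adjusted p = 4.6e-13). Cdkn1b thus kept 51.5% of its P1 mean, while the cycling genes kept a median of 3.53%. No step after P15 passed, with means of 78.3 CPM at P28 (SD 7.55) and 77.9 CPM at P60 (SD 3.48). Per kb of exon it was the largest of the 4 inhibitors at every age, from 57.8% of their sum at P1 to 77.7% at P28. No exon base of Cdkn1b is shared with another annotated gene.

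Cdkn1a (p21), the classical p53 target among the inhibitors, had the fewest reads of the members, with 1 to 46 in a library. It read 1.40, 0.316 and 1.68 CPM at E14, 2.76, 3.18 and 3.42 CPM at E17 and 5.64, 3.91, 4.07 and 5.32 CPM at P1. The rise from E14 to E17 (log2 fold change 1.01, SE 0.26, adjusted p = 0.0073) was not called without E14 replicate 2, the library with 3 reads (0.69, adjusted p = 0.126). At P6 the gene read 2.12, 2.06 and 2.90 CPM, and at P15 it read 0.803, 0.658, 1.46 and 1.24 CPM, each age below the one before. The fall from P1 to P6 (adjusted p = 0.0113) was not called with a pseudocount of 0.1 (adjusted p = 0.152). The fall from P6 to P15 (adjusted p = 0.0195) was called in 10 of 15 alternative settings. It was not called by edgeR (adjusted p = 0.0580) or with a pseudocount of 0.1 (adjusted p = 0.0961). From P1 to P15 the log2 fold change was -1.50 (SE 0.22, adjusted p = 8.6e-07), which on this scale understates the change of so low a gene. The log2 ratio of Cdkn1a to Cdkn1b changed by -0.55 from P1 (SD 0.17) to P15 (SD 0.33) and was the 1 ratio of 16 that did not pass (exact p = 0.0857). Of 12 other p53 targets, 2 rose and 5 fell from P1 to P15, with a median log2 fold change of -0.28. Of all features 27% were higher and 33.3% lower over this step. Of the exon bases of Cdkn1a, 7.68% are shared with AC167363.2 on the opposite strand, whose level was not analysed here. Of the p53 targets, Sesn2 went from 2.96 to 8.20 CPM, Ccng1 from 42.9 to 64.3 CPM, Btg2 from 205 to 86.7 CPM and Eda2r from 4.22 to 0.198 CPM.

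A vessel marker also had its highest mean at P1. Kdr, a receptor of vascular endothelial cells that retinal progenitors also express, read 167 CPM at E14, 457 CPM at P1 and 124 CPM at P15. Of the 6 vessel markers, 4 rose and 1 fell (Kdr) from P1 to P15 (27% of all features higher and 33.3% lower). Their summed level ranged from 419 to 489 CPM at P1 and from 154 to 182 CPM at P15, most of it from Kdr. The part of vessel cells in the values of Cdkn1a and Cdkn1b was not tested.

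Of the inhibitors, the INK4 gene Cdkn2c (p18) kept the smallest share of its P1 level at P6 and P15. It rose before birth, from 10.5, 11.1 and 10.95 CPM at E14 to 18.5, 19.2 and 19.0 CPM at E17 and 40.8, 38.4, 32.2 and 34.3 CPM at P1. The log2 fold changes were 0.75 from E14 to E17 (SE 0.22, adjusted p = 0.0221) and 0.91 from E17 to P1 (SE 0.21, adjusted p = 0.0030). The first of these was not called when any 1 library of E14 or E17 was left out (adjusted p between 0.0583 and 0.0724), although the libraries of the 3 ages never overlapped. At P6 it was down to 3.25, 5.62 and 3.31 CPM, which is a log2 fold change of -2.91 (SE 0.21, adjusted p = 2.9e-13) and 11.1% of the P1 mean. At P15 it read 3.35, 2.11, 3.77 and 1.24 CPM, overlapping with P6 (log2 fold change -0.51, SE 0.21, adjusted p = 0.0531). It was the member that rose from P15 to P28, to 6.26, 4.35, 5.82 and 7.54 CPM, above every library of P15, by 0.99 on the log2 scale (SE 0.19, adjusted p = 0.0017), and at P60 it ran from 5.76 to 8.65 CPM. Those P15 values rest on 9 to 31 reads.

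Cdkn2d (p19) moved less than its relative. It read 7.502 to 9.92 CPM at E14, 7.57 to 11.1 CPM at E17 and 8.95 to 13.1 CPM at P1, with no step passing the test. At P6 it held 6.78, 8.003 and 5.24 CPM and at P15 4.95, 5.66, 5.23 and 6.73 CPM. The log2 fold change from P1 was -0.64 at P6 (SE 0.21, adjusted p = 0.0134) and -0.84 at P15 (SE 0.19, adjusted p = 3.4e-04), with libraries that did not overlap in either case. The step to P6 was not called without P6 replicate 3 (log2 fold change -0.50) or without P1 replicate 1 (-0.55). The log2 ratio of Cdkn2c to Cdkn2d fell by 2.59 from P1 (SD 0.23) to P15 (SD 0.66, exact p = 0.0286, adjusted p = 0.0305). The summed signal of the 4 inhibitors was 30.6 CPM per kb at E14, 51.7 at P1, 26.7 at P6 and 20.2 at P15, and Cdkn2c held 26.2% of it at P1, 5.60% at P6 and 11.2% at P60.

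**Figure D3:**
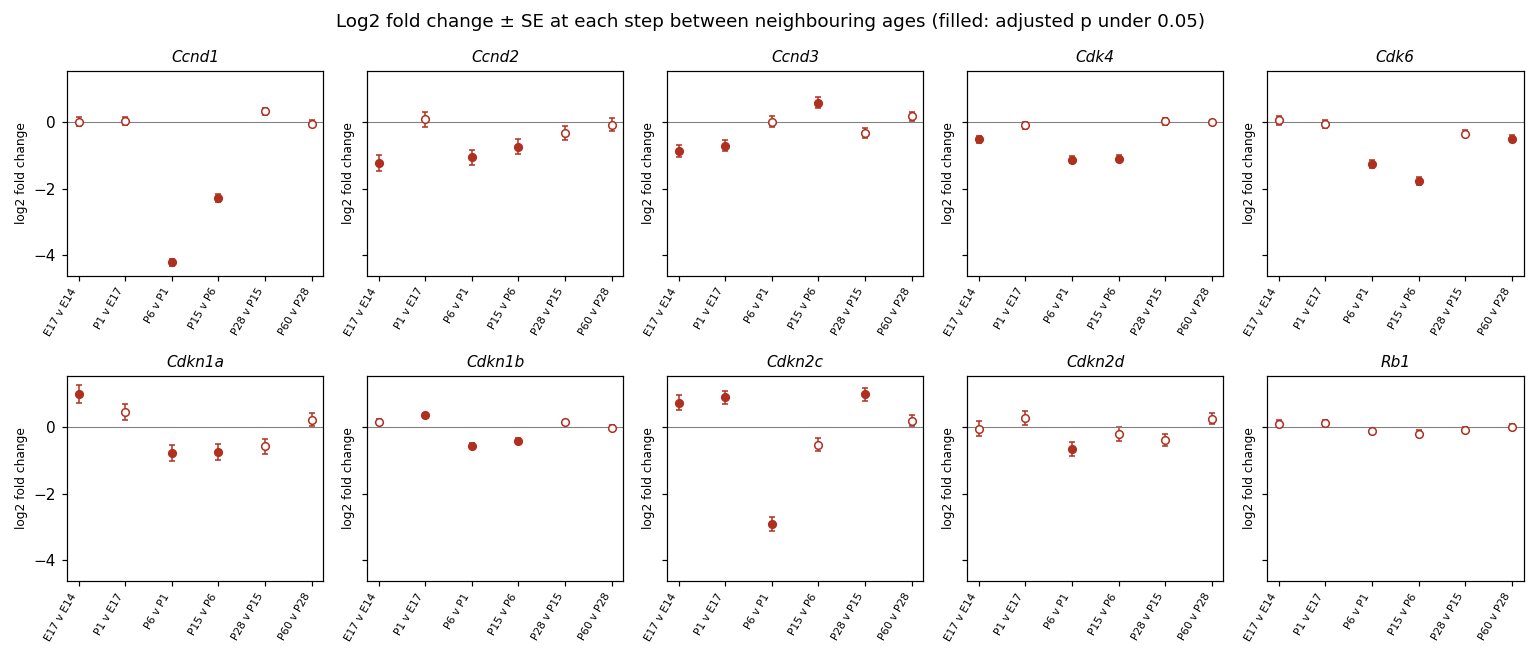
Log2 fold change (y axis) of each gene at each step between neighbouring ages (x axis), with the standard error as bars and filled points for an adjusted p under 0.05. The largest falls are at P6 against P1, where Ccnd1 reaches -4.22 and Cdkn2c -2.91, and most points after P15 are open.

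Rb1, the tumour suppressor on which these kinases act, kept its level closest to constant. The libraries held 74.8, 69.5 and 70.4 CPM at E14, 76.9, 78.4 and 78.0 CPM at E17 and 90.0, 74.6, 81.0 and 98.6 CPM at P1. At P6 they held 78.6, 79.9 and 80.0 CPM, and at P15 71.6, 78.8, 66.0 and 64.3 CPM, so that P1 and P15 overlapped. No step between neighbouring ages passed the test. The log2 fold change from P1 to P15 was -0.29 (SE 0.09, adjusted p = 0.0068), and it was not called with median-of-ratios scaling of the libraries (-0.19, adjusted p = 0.0890) or by edgeR on the recovered reads (-0.18, adjusted p = 0.105). The highest mean of an age, at P1, was 1.29 times the lowest, at P28, against 97.0 times for Ccnd1. Of the exon bases of Rb1, 8.11% are shared with Rcbtb2 and 6.78% with Lpar6, both on the opposite strand, and these genes read 77.5% and 38.8% of the Rb1 value at P1 and 28.1% and 24.4% at P15. Their part in the Rb1 values was not tested.

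The members were then set against the end of proliferation itself. At P6 Ccnd1 kept 5.33% of its P1 mean, below 14 of the 25 cycling genes and above 11, and Cdkn2c kept 11.1%, above 19 of them. The other members kept more: Cdk6 40.9%, Cdk4 45.2%, Ccnd2 45.4%, Cdkn1a 49.8%, Cdkn2d 61.0%, Cdkn1b 67.9%, Rb1 92.4% and Ccnd3 101%. By P15 the order was Ccnd1 at 1.03%, Cdkn2c at 7.17%, Cdk6 at 11.6%, Cdk4 at 20.8%, Cdkn1a at 22.0%, Ccnd2 at 24.0%, Cdkn1b at 51.5%, Cdkn2d at 51.6%, Rb1 at 81.5% and Ccnd3 at 156%. Cdkn1b and Cdkn2d, and likewise Cdk4, Cdkn1a and Ccnd2, are neighbours in this order that lie within 1 SD of the P15 libraries of each other. Of the cycling genes, 10 kept a smaller share than Ccnd1 at P15 and 15 a larger one.

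**Figure D4:**
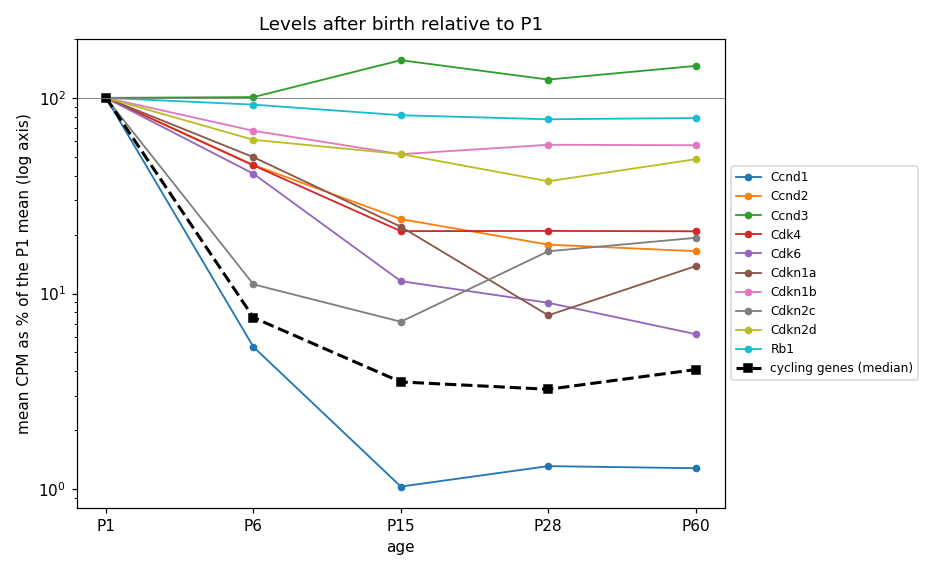
Mean CPM of each gene at P1 to P60 (x axis) as a percent of its P1 mean (y axis, log scale), with the median of 25 cycling genes dashed. At P15 Ccnd1 lies at 1.03%, below the cycling genes' median of 3.53%, while Ccnd3 lies at 156%.

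The same comparison was tested within libraries, as each member's log2(CPM + 1) less the mean of the cycling genes. Relative to that mean Ccnd1 fell by 1.996 from P1 to P15, and the other 9 members rose against it, by 1.09 for Cdkn2c, 1.48 for Cdk6, 2.29 for Cdk4, 2.72 for Ccnd2, 3.02 for Cdkn1a, 3.56 for Cdkn1b, 3.67 for Cdkn2d, 4.23 for Rb1 and 5.12 for Ccnd3. Each of these 10 differences had the smallest exact p the design allows (0.0286, adjusted p = 0.0305), since the 4 libraries of P1 and the 4 of P15 did not overlap. All 25 cycling genes fell over this step, with a median log2 fold change of -4.38. A gene of any kind that fell less than their mean therefore rises against it, so these rises are not particular to the members. The share of all features that rise against this mean was not counted. The size for Ccnd1 depends on the pseudocount, because many cycling genes were near 0 at P15, and with a pseudocount of 0.1 it was -0.96.

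**Figure D5:**
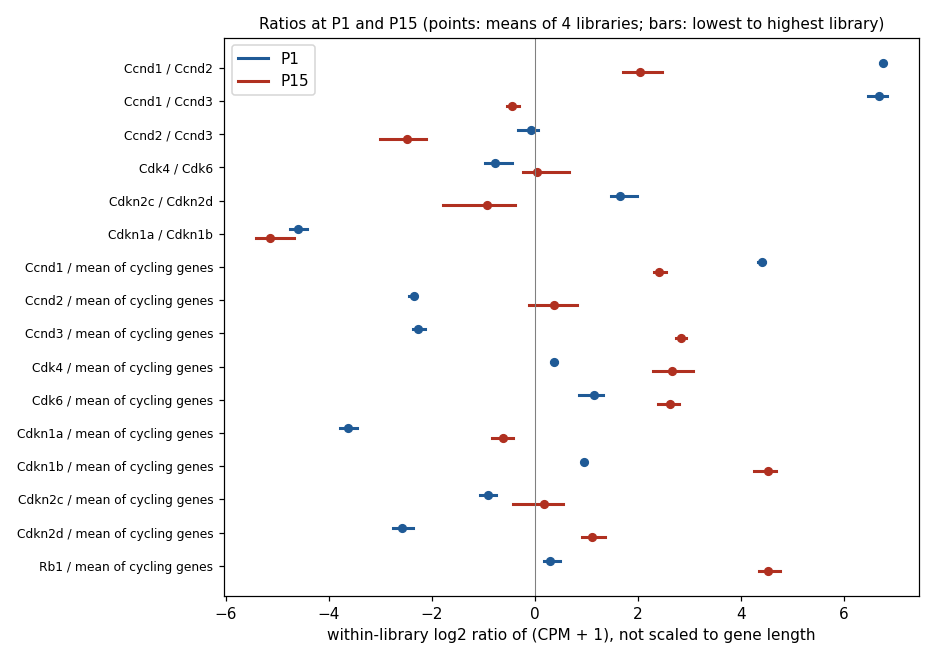
Within-library log2 ratios of CPM + 1 (x axis, not scaled to gene length, so that the shift between ages and not the position can be read) at P1 and P15 for 6 pairs of members and for each of the 10 members against the mean of the cycling genes (y axis), with points for the mean of 4 libraries and bars from the lowest to the highest library. The bars of P1 and P15 overlap only for Cdkn1a to Cdkn1b, and Ccnd1 alone moves down against the cycling genes.

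The rest of the pathway was read from a list of 24 other genes around the retinoblastoma protein, of which 23 were tested. From P1 to P15, 20 fell, 1 rose and 2 did not pass (33.3% of all features lower and 27% higher). Their median log2 fold change was -1.52. The activating E2F genes differed in their values. E2f1 went from 64.9 CPM at P1 (SD 5.27) to 5.45 CPM at P6 and 1.35 CPM at P15, and E2f2 from 19.3 to 2.23 and 0.769 CPM, while E2f3 read 41.1, 42.6 and 38.8 CPM (log2 fold change from P1 to P15 -0.08, SE 0.10). E2f3 fell later, to 24.4 CPM at P28 and 18.0 CPM at P60. The repressors E2f7 and E2f8, which are themselves E2F targets, went from 88.8 and 83.4 CPM at P1 to 1.08 and 0.0991 CPM at P15. Of the other E2F genes, E2f4 stayed at 29.7 and 26.0 CPM and did not pass, and E2f5 went from 37.2 to 24.8 CPM and E2f6 from 36.6 to 21.6 CPM.

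The relatives of Rb1 went opposite ways. Rbl1 (p107), known from dividing cells, went from 76.4 CPM at P1 (SD 3.11, n = 4) to 13.8 CPM at P6 and 6.45 CPM at P15, a log2 fold change of -3.38 (SE 0.12, adjusted p = 3.3e-21). Rbl2 (p130), known from resting cells, went from 41.5 CPM at E14 to 57.0 at E17, 72.1 at P1 and 106 at P6, rising at each step, and was 103 CPM at P15, a log2 fold change of 0.51 over P1 (SE 0.08, adjusted p = 9.2e-07). Rbl2 was the 1 gene of this list that rose. Among the remaining inhibitors, Cdkn1c (p57) was highest at E14 with 98.7 CPM (SD 5.36) and went to 67.7, 32.8, 31.8 and 17.4 CPM at E17, P1, P6 and P15. Its fall from E17 to P1 (log2 fold change -1.03, SE 0.19, adjusted p = 3.5e-04) came at the step at which Cdkn1b and Cdkn2c rose. Cdkn2b (p15) reached 2.69 CPM at P1 and was at most 0.803 CPM in any library of P15, and Cdkn2a was at most 0.710 CPM in any library and was not tested.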

How the data were processed

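The authors extracted total RNA from whole retinas, made SMARTer total RNA libraries, collected single-end reads of 50 bases on a HiSeq-2500 and aligned them to GRCm38/mm10 with STAR. The deposited table gives CPM, in which each column is 1 library scaled to its own total of counted reads. Annotation and strand of counting are not given in the sources used here. The members and lists were chosen with earlier results of these data known.

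Libraries were grouped by the age in the labels. A repeated symbol was represented by its entry of highest mean CPM. All values were whole reads within a tolerance of 0.05 read. Totals of counted reads were 7077781 to 11332323, with a floor of 3 reads that covers counting error only. The test was limma 3.58.1 with a mean-variance trend (R 4.3.3) on log2(CPM + 1), two-sided, for features that reached 1 CPM in 3 or more libraries, a scale on which fold changes of low genes come out too small. Within-library ratios were compared by exact permutation (scipy 1.17.1). On simulated reads limma recovered 198 of 200 genes changed from P1 to P15 by 1.5 on the log2 scale, with 16 false calls among 31585 genes. Same-age libraries differed by more than counting noise (chi-square per degree of freedom at least 1.72 in 42 pairs). The labels do not say whether libraries of an age came from separate litters, so p-values measure only the spread between these libraries. Exons came from GENCODE for GRCm38. All 10 members were named, and of each list the 2 largest rises and falls from P1 to P15 among genes past the test, with the E2F genes, RB relatives, inhibitors, Mki67, Top2a and Pcna. Oraov1, Tspan31, Bysl, Gm17590, Rcbtb2 and Lpar6, as overlapping genes, and Mycn and Myc were chosen after their values were seen. Alternatives were a pseudocount of 0.1, no filter, a filter at a mean of 10 CPM, median-of-ratios scaling, a replicate block, edgeR 4.0.16 on recovered reads, fits of the compared ages only, a minimum absolute log2 fold change of 1, summed entries of a symbol, and leaving out each library in turn. EdgeR without E14 replicate 1, limma without P60 replicates 1 and 2 and list counts under these settings were added after the data were seen.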

Additional observations from a re-analysis of the deposited data

Results flagged for a closer look

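Among 40 sets of libraries of 1 gene and 1 age (groups of 4 to 6 libraries), 3 held a library whose gap to the nearest other, as a share of the whole range, was above the 95% critical value of Dixon's test, and chance gives about 1 in 20. Cdk6 stood at 7.40 CPM in P60 replicate 3, with the other 5 libraries at 9.68 to 10.8 CPM. Cdkn1b stood at 89.6 CPM in P28 replicate 4, with the others at 74.4 to 74.7 CPM. Cdkn1b stood at 71.5 CPM in P60 replicate 1, with the others at 77.6 to 81.2 CPM.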

How the results depend on the processing

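Of 564 alternative values for the 35 called member fold changes, 542 kept direction and side of the threshold, 22 fell short of it and 0 reversed, and 27 fold changes were called in every alternative. With a minimum absolute log2 fold change of 1 the members changed were 6 for P15 against P1, 2 for E17 against E14, 0 for P1 against E17, 5 for P6 against P1, 3 for P15 against P6, 0 for P28 against P15 and 0 for P60 against P28, because smaller changes are not counted. E17 against E14 gave 3 members with a pseudocount of 0.1, and a filter at a mean of 10 CPM, which leaves 7 members tested, gave 3 there and 5 for P6 against P1. P60 against P28 gave 0 members (Cdk6 not called) in the fit of these ages alone, where 7 features passed against 4100 in the fit to all ages. Leaving out 1 library in turn gave 10 members throughout for P15 against P1, 3 to 4 for E17 against E14 (3 without E14 replicate 2), 7 to 8 for P6 against P1, 6 to 8 for P15 against P6, 1 to 2 for P28 against P15 (2 without P15 replicate 4, where Cdk6 also fell) and 1 for P60 against P28. Without both P60 replicates 1 and 2, P60 against P28 gave 2 members, as Ccnd3 rose too, P28 against P15 gave 2, as Ccnd1 rose too, and P15 against P6 gave 8, as Cdkn2c also fell (adjusted p = 0.0431). For the within-library ratios, leaving out any 1 library of P1 or P15 left 0 of 16 past the threshold, since the smallest p is then 0.0571. The level Ccnd3 kept at P15 was 167% of P1 with median-of-ratios scaling, against 156%.

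Of the calls of P60 against P28 over all features, 37.2% were higher, against 51.6% with median-of-ratios scaling and 60.8% by edgeR. Other counts over all features that moved by over 1.5 times were 6605 for E17 against E14, 4529 for P1 against E17 and 1331 for P28 against P15 in fits of the compared ages alone (3359, 2924 and 864 in the fit to all ages), and 9951, 7398 and 6879 for P15 against P1, P6 against P1 and P15 against P6 with the filter at a mean of 10 CPM, which tests fewer features (19155, 12178 and 10610 otherwise). With the replicate block the members changed were 10 for P15 against P1, and it changed no member count of another comparison. It gave 1029 calls over all features for P60 against P28. Samples of the same number did not deviate together (r of 24 pairs from -0.13 to 0.09, own number best in 10), so the numbers were not taken as pairs. Depth limits Cdkn1a most, with 1 to 46 reads in a library.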

Other observations

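The genes whose log2(CPM + 1) over the 27 libraries was most like that of a member, among 10726 genes with a mean of at least 10 CPM, are given as a description, since all share the same libraries and ages. For Ccnd1 they were Hist1h2bg, Neil3 and Hist2h2bb (Pearson r 0.996 to 0.997), 2 histone genes and a DNA glycosylase. For Cdk6 they were Marcks, Rnd3 and Satb1 (0.993 to 0.996), for Cdk4 Rpl32, Smarcc1 and Zfp422 (0.992 to 0.993) and for Ccnd2 Elovl5, Chrna3 and Rpl30 (0.968 to 0.971). For Cdkn1a they were Mcam, Sox2ot and Kdr (0.915 to 0.923) and for Cdkn1b Dhx32, Kdr and Sox2ot (0.935 to 0.947). For Ccnd3 they were Ank2, Egfem1 and Sdk1 (0.875 to 0.913), for Cdkn2c Paxip1, Peak1 and Sipa1l1 (0.909 to 0.919), for Cdkn2d Sh3pxd2a, Src and Plxnd1 (0.895 to 0.921) and for Rb1 Tbc1d15, Cmpk1 and Nupl1 (0.834 to 0.847).

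Of the 25 cycling genes, 4 rose and 0 fell from P28 to P60 (Ccna2, Mcm7, Mki67 and Top2a), where 4.8% of all features were higher. In the fit of these 2 ages alone 0 of them passed, as did 7 of all features against 4100 in the fit to all ages, and in the fits with another scaling or filter, another pseudocount, the replicate block or edgeR 3 to 5 rose, and 1 (Rrm2) fell with a pseudocount of 0.1. The direction of this comparison over all features depends on scaling, with 37.2% of the calls higher against 51.6% with median-of-ratios scaling and 60.8% by edgeR. Without P60 replicates 1 and 2, which stood apart, 6 of the 25 rose, where 13.4% of all features were higher. Mki67 ranged from 0.282 to 4.42 CPM over the P60 libraries and from 0 to 0.666 CPM at P28 (log2 fold change 1.30, adjusted p = 0.0052 by limma), and Top2a from 0.393 to 2.61 CPM and from 0.133 to 0.271 CPM (0.82, adjusted p = 0.0042). Pcna, at 7.41 CPM at P28 and 8.45 CPM at P60, did not pass.

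Markers of other tissues moved over the step from P1 to P15 as well, where 27% of all features were higher and 33.3% lower. Of 5 pigment epithelium markers tested 4 rose and 0 fell, and the summed level of that list went from a median of 5.89 CPM at P1 to 50.3 CPM at P15. Of 4 blood markers tested 3 rose, of 3 lens markers tested 1 fell (Mip), and of 6 microglia markers 0 rose and 0 fell. Of 8 Müller glia markers 5 rose and 3 fell, with Abca8a and Aqp4 the largest rises (log2 fold changes 6.57 and 6.22) and Vim and Slc1a3 among the falls (-0.91 and -0.69). Of 7 immediate early genes 3 rose and 3 fell. Their part in the members' values was not tested.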
